A study of Mus musculus with 19 samples.

Results

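The expression of 8 brown fat thermogenic genes was examined in RNA-seq of mouse mammary glands and HER2/neu-driven mammary tumors. The genes were Ucp1, Cidea, Ppargc1a, Dio2, Cox7a1, Cox8b, Elovl3 and Prdm16, taken as the table entries whose Ensembl identifiers carry these symbols, and they are 8 of the 46078 genes measured. The set is defined by symbol and not by an expression value. All 8 had reads in some of the 19 libraries, and 7 of them had their highest level in the same single gland.

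Brown and beige adipocytes burn fatty acids to make heat, whereas white adipocytes store them. Noradrenaline from sympathetic nerves acts on the beta-3 adrenergic receptor of these cells, cyclic AMP rises, and the released fatty acids both fuel the mitochondria and open UCP1, a carrier of the inner mitochondrial membrane that lets protons return without making ATP. Dio2 makes active thyroid hormone inside the cell, Ppargc1a and Prdm16 control transcription of the program, Cidea and Elovl3 act on lipid droplets and very long chain fatty acids, and Cox7a1 and Cox8b are tissue-restricted subunits of cytochrome c oxidase. In the mouse, mammary epithelium grows inside a fat pad, and beige cells can appear within such white depots.

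The 5 groups were 3 glands of wild-type mice (MG-WT), 4 glands (MG-N) and 4 tumors (T-N) of N mice, and 4 glands (MG-NP) and 4 tumors (T-NP) of NP mice. The MMTV promoter drives neu in mammary epithelium, Fsp-Cre expresses Cre in fibroblasts, and the p53wm-R172H allele switches from wild-type to R172H p53 in cells where Cre is active. By the sample records, MG-NP and T-NP carried MMTV-neu, p53wm-R172H/+ and Fsp-Cre. All T-N tumors and MG-N replicate 1 carried MMTV-neu and Fsp-Cre, while MG-N replicates 2, 3 and 4 carried MMTV-neu and p53wm-R172H/+ without Cre. Glands of N and NP mice came from tumor-bearing females and held no malignant lesion, and the wild-type mice were matched to them in age. The N and NP mice had a mixed FVB, C57 and BALB/c background, and the paper does not state that of the wild-type mice. The library names of T-NP replicates 1 and 2 share an animal number, so they may not be independent.

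Expression is given as normalized counts, which are read counts divided by the DESeq2 size factor of each library. Total reads ranged from 20899152 to 27262440 in the 16 libraries of N and NP mice and from 54677315 to 62645459 in MG-WT. The 9 white adipocyte markers took 0.0197% to 0.0265% of reads in MG-WT, 2.07% to 2.59% in MG-N, 1.05% to 1.95% in MG-NP and 0.00321% to 0.132% in the tumors. Adipoq, the adipocyte hormone adiponectin, had 1.71, 23.4 and 9.82 normalized counts in the 3 MG-WT glands, so RNA of the adipocytes of the mammary fat pad was nearly absent there. The 16 skeletal muscle markers took 1.93%, 9.35%, 0.0581% and 5.17% of reads in MG-NP replicates 1 to 4, and at most 0.121% in every other library. MG-NP replicates 2 and 4 therefore held the most muscle RNA, and replicate 1 also held more than any library outside MG-NP. In these bulk samples, fewer cells of a type cannot be told apart from less RNA per cell.

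Promoters of 6 of the 8 genes were matched in RefSeq by symbol. Those of Ucp1, Dio2 and Cox8b are shown as the 250 bases before the start site on GRCm38.p6, 5′ to 3′ on the strand of the gene. Ucp1 and Dio2 are shown because both peaked in a single MG-NP gland, and Cox8b because it was high in several. The windows are chr8:83290098-83290347 (plus strand), chr12:90739039-90739288 (minus strand) and chr7:140900447-140900696 (minus strand), and the RefSeq start of Dio2 lies 600 bases upstream of the start in the GENCODE vM21 gene model.
Ucp1: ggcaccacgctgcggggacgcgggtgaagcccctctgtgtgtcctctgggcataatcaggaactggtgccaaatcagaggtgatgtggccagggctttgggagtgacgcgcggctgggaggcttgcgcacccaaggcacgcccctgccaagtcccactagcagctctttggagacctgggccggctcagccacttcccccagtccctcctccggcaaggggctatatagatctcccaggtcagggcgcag
Dio2: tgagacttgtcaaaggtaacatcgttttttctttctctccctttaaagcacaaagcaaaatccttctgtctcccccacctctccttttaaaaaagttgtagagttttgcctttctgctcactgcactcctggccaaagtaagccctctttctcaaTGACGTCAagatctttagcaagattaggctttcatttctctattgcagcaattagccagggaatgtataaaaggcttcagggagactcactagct
Cox8b: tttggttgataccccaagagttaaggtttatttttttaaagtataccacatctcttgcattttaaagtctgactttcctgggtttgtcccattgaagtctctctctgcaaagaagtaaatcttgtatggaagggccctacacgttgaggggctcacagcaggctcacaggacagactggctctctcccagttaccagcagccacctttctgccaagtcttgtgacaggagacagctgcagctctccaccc
The capitals mark TGACGTCA, the cAMP response element, which lies 95 to 88 bases before the Dio2 start site. The 300-base windows, which reach 50 bases past the start, were searched on both strands for this element, for AGGTCA repeated after 1 base of any kind (the PPAR-RXR element), for TCAAGGTCA (estrogen-related receptors) and for TCCC and GGGA set 2 bases apart (EBF factors). These were present in 1.79%, 0.0396%, 0.423% and 0.904% of all 32851 promoters. No other match was found in the 6 windows.

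Ucp1 spans chr8:83290352-83298452 on the plus strand of GRCm38 and had 1967, 2.85, 479.8 and 56926 normalized counts in MG-NP replicates 1 to 4. The highest and the lowest gland of the whole set of 11 were thus of the same genotype. MG-N glands had 24.2, 783, 86.4 and 813, and MG-WT glands had 11.9, 10.3 and 13.95. MG-N replicates 2 and 4 were high, and replicates 1, the gland with Cre, and 3 were low. In tumors, the values were 842, 1.05, 1139 and 64.2 in T-N and 1.12, 8.54, 9.09 and 9.99 in T-NP. T-N replicates 1 and 3 were above every MG-N gland, whereas no T-NP tumor passed 10 normalized counts. By median, the order was MG-NP, T-N, MG-N, MG-WT and T-NP, and the ranges of the 3 highest groups overlapped.

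**Figure D1:**
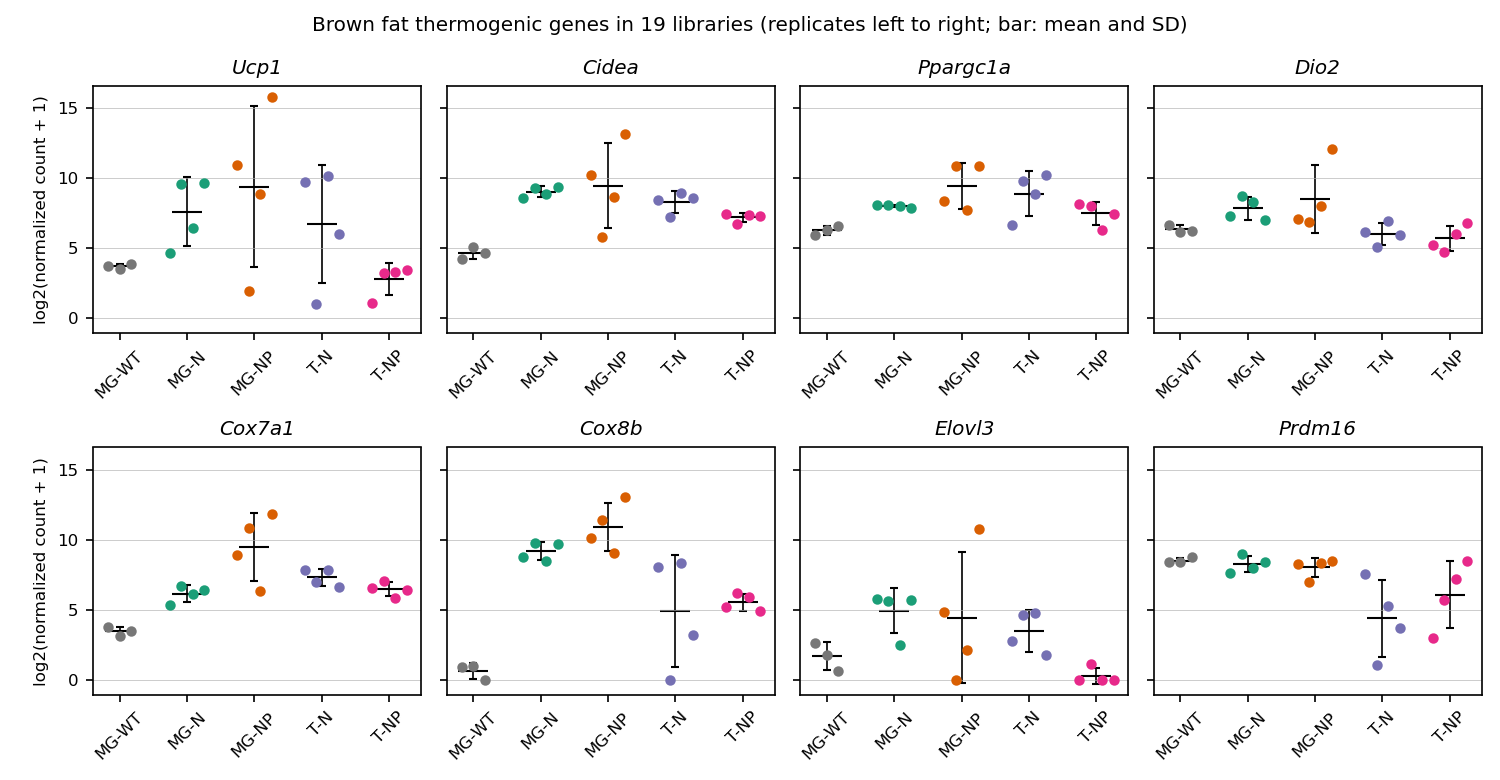
Levels of the 8 genes in each of the 19 libraries as log2(normalized count + 1), with replicates from left to right within a group and the bar showing the group mean and SD. MG-NP replicate 4, the rightmost MG-NP point, reaches 56926 normalized counts of Ucp1, while MG-NP replicate 2 has 2.85.

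Cidea, a lipid droplet protein at chr18:67343604-67367785 (plus strand), had 17.5, 32.7 and 23.8 normalized counts in MG-WT and 387, 632, 460.2 and 679.7 in MG-N. It was 1224, 55.7, 403 and 9003 in MG-NP, so the same replicates as for Ucp1 gave the extremes. Tumor values were 351, 148, 501 and 378 in T-N and 169, 105, 168 and 159 in T-NP. Every tumor and every gland of N and NP mice was above every MG-WT gland, and T-NP was the narrowest of the N and NP groups at 150.1 ± 30.5 (SD, n = 4). The annotated noncoding gene B430212C06Rik overlaps Cidea on the opposite strand with at most 95.6 normalized counts in any library, and whether counting used strand is not given in the sources used here.

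Elovl3 (chr19:46131897-46135694, plus strand), an elongase of very long chain fatty acids, had 27.7, 0, 3.25 and 1774 normalized counts in MG-NP. MG-N glands had 54.8, 49.4, 4.696 and 51.5, and MG-WT glands had 5.12, 2.44 and 0.517. Replicate 4 thus carried nearly all the Elovl3 of its group, and MG-N replicate 3 lay apart from 3 glands near 50. The tumors had 5.68, 24.2, 26.3 and 2.33 in T-N and 0, 1.22, 0 and 0 in T-NP. With 1 read in a single T-NP tumor, this group was at the limit of detection. Pitx3 overlaps Elovl3 on the opposite strand and had at most 87.1 normalized counts in any library.

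Dio2 (chr12:90724552-90738438, minus strand), the deiodinase that converts T4 into T3, had 138, 117, 258 and 4296 normalized counts in MG-NP and 157, 429.8, 316 and 129.8 in MG-N. Outside replicate 4, the MG-NP glands lay within or just below the MG-N range. The values were 100.2, 70.3 and 75.4 in MG-WT, 71.6, 32.7, 120.2 and 59.5 in T-N and 35.9, 25.6, 64.9 and 111 in T-NP. No tumor reached the lowest MG-N gland, and the tumors overlapped with MG-WT. Gm26512 overlaps Dio2 on the opposite strand and had at most 16.1 normalized counts in any library.

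Cox7a1 (chr7:30184144-30186078, plus strand) and Cox8b (chr7:140898945-140900446, minus strand) are the forms of subunits 7a and 8 used in heart, skeletal muscle and brown fat. Cox7a1 had 474, 1857, 79.1 and 3671 normalized counts in MG-NP, 12.8, 7.81 and 10.3 in MG-WT and 39.5, 103, 70.4 and 83.4 in MG-N. Cox8b had 1110.2, 2679, 545 and 8396 in MG-NP, 0.853, 0.976 and 0 in MG-WT (2, 2 and 0 reads) and 432, 855, 355 and 834 in MG-N. Unlike Ucp1, Cidea and Elovl3, both subunits were high in MG-NP replicate 2 as well as in replicate 4. In tumors, Cox7a1 was 227, 126, 228 and 95.7 in T-N and 94.2, 134, 55.9 and 82.4 in T-NP. Cox8b was 264, 0, 317 and 8.17 in T-N and 34.8, 71.97, 58.4 and 28.7 in T-NP, so T-N held both the highest and the lowest tumors for Cox8b.

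Set against their widely expressed counterparts per kilobase of exon, Cox7a1 made up 29.2, 52.9, 7.37 and 49.8% of the Cox7a1 and Cox7a2 total in MG-NP. It made up 2.33, 7.404, 4.305 and 4.96% in MG-N. The share of Cox8b in the Cox8a and Cox8b total was 45.7, 68.4, 24.01 and 69.3% in MG-NP and 17.8, 29.01, 13.4 and 27.6% in MG-N. In MG-NP the order of the glands by share of muscle reads, replicates 2, 4, 1 and 3, was also their order by the Cox7a1 share. The Cox8b share was already 27.6% in MG-N replicate 4, the N or NP gland with the least muscle RNA (0.00175% of reads). The part of muscle RNA in the subunit levels of MG-NP was not tested beyond these values. The fits with a muscle covariate, given for the comparisons, cannot separate it from group where the muscle scores do not overlap.

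**Figure D2:**
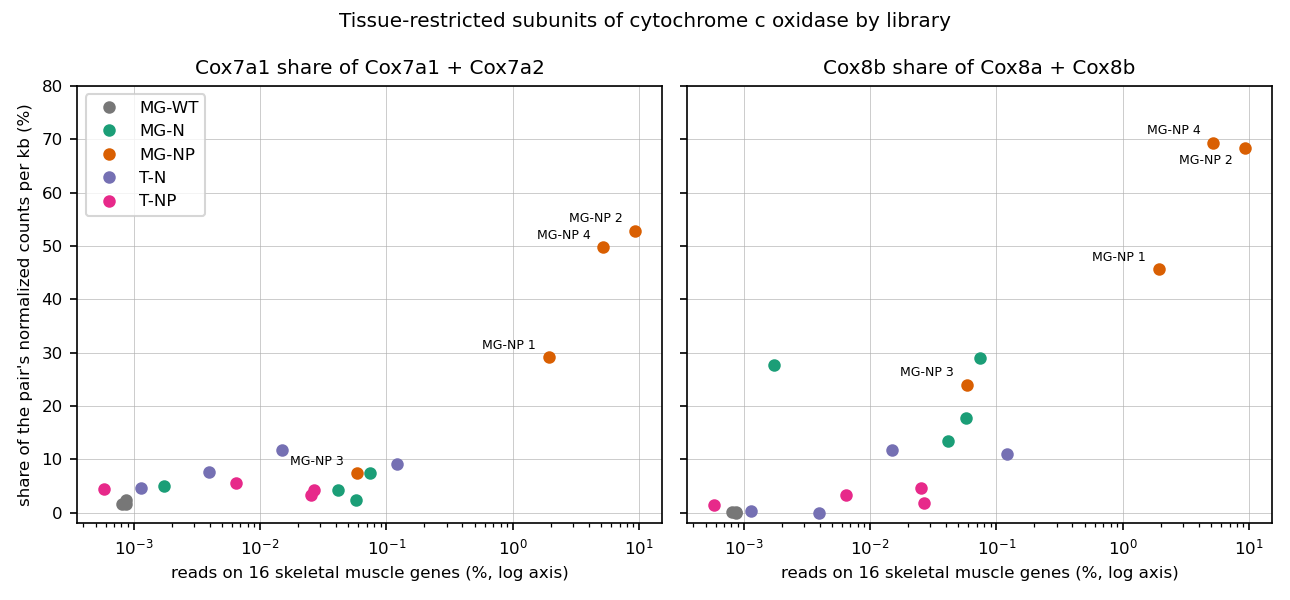
Share of Cox7a1 (left) and of Cox8b (right) in its subunit pair, in percent of normalized counts per kilobase, against the percent of reads on 16 skeletal muscle genes (log axis), with 1 point per library. MG-NP replicates 1, 2 and 4 have the largest Cox7a1 shares, from 29.2% to 52.9%, whereas MG-N glands reach 29.0% of Cox8b at 0.0746% muscle reads or less.

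Ppargc1a (chr5:51454250-51567726, minus strand), the coactivator PGC-1alpha that drives mitochondrial genes in muscle and brown fat alike, had 326, 1884, 213 and 1894 normalized counts in MG-NP. MG-N glands had 269, 270.1, 260.1 and 233, and MG-WT glands had 60.1, 79.6 and 94.04. MG-N was tight at 258 ± 17.4 (SD, n = 4), and MG-NP replicates 1 and 3 lay close to it, while replicates 2 and 4 were nearly equal and far above. Tumor values were 99.98, 899.8, 476 and 1222 in T-N and 290.4, 259, 79.2 and 176 in T-NP. T-N replicates 2 and 4 were among the 4 highest libraries of the set, and muscle markers took 0.00395% and 0.00115% of their reads. The part of muscle RNA in the tumor levels was not tested. Gm43605, an annotated gene on the same strand that overlaps Ppargc1a, had at most 141 normalized counts in any library.

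Prdm16 (chr4:154316125-154636873, minus strand), a zinc finger regulator of brown and beige identity that is also used by other cell types, behaved differently. It had 335, 332 and 429.9 normalized counts in MG-WT, 307, 127, 321 and 363 in MG-NP and 199, 502, 246 and 344 in MG-N. The 3 gland groups overlapped, and the MG-WT glands, with almost no Adipoq, had as much Prdm16 as the others. The tumors had 185, 1.05, 37.4 and 11.7 in T-N and 6.73, 50.02, 149 and 356 in T-NP. T-N replicate 1 and T-NP replicates 3 and 4 were within the range of the glands.

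By group median, MG-NP was highest for Ucp1, Cidea, Ppargc1a, Cox7a1 and Cox8b, MG-N for Dio2 and Elovl3, and MG-WT for Prdm16. MG-WT was lowest for Cidea, Ppargc1a, Cox7a1 and Cox8b, T-NP for Ucp1, Dio2 and Elovl3, and T-N for Prdm16. Most groups next to each other in these orders overlapped. The exceptions were MG-N above MG-WT and MG-WT above T-NP for Ucp1, T-NP above MG-WT for Cidea, MG-NP above MG-WT for Dio2, MG-N above MG-WT for Cox7a1, and MG-N above T-N and T-NP above MG-WT for Cox8b. For Ppargc1a, Elovl3 and Prdm16 every group overlapped with the next.

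The gland labelled MG-NP replicate 4 was the highest of the 19 libraries for 7 of the 8 genes, and MG-N replicate 2 was the highest for Prdm16. Of the 18572 genes with a mean of at least 10 normalized counts, 8.07% were highest in that gland and 0.625% were at least 2-fold above every other library. Among genes highest there, Elovl3 ranked 1 with 32.4-fold over the next library, Ucp1 ranked 2 with 28.9-fold, Dio2 ranked 5 with 9.99-fold and Cidea ranked 8 with 7.36-fold. Cox8b ranked 42 with 3.13-fold, Cox7a1 ranked 121 with 1.98-fold, and Ppargc1a was level with replicate 2 at 1.01-fold. The 8 genes took 0.249% of all reads in this gland, of which 65.9% were Ucp1, and 0.00201% to 0.0239% of reads elsewhere. This gland is a single library, so these values have no replicate check.

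Other genes of the program peaked in the same gland. Of the 14 genes of fatty acid fuel use, 11 were highest there and 9 by at least 2-fold, and of 17 genes enriched in brown and beige adipocytes, 8 were highest there. Of the 14 of these 17 with a mean of at least 10 normalized counts, 7 were highest there and 5 by at least 2-fold. Named after their values were seen, the genes with the largest excess over the next library besides the 8 were Sgk2 at 24.1-fold, Cyp2b10 at 17.2-fold and Adtrp at 9.69-fold. Genes of cardiac and slow muscle fibers were also among the top ranks, such as Myh6 at 7.78-fold, Tnni1 at 6.57-fold and Myh7 at 5.97-fold. By contrast, 16 of 16 genes of the skeletal muscle list were highest in MG-NP replicate 2, and none of them in replicate 4. That list holds none of Myh6, Tnni1 and Myh7, so the muscle shares and scores do not count these genes. Replicate 2, with the largest share of muscle reads, had the lowest Ucp1, Cidea and Elovl3 of the 8 N and NP glands.

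**Figure D3:**
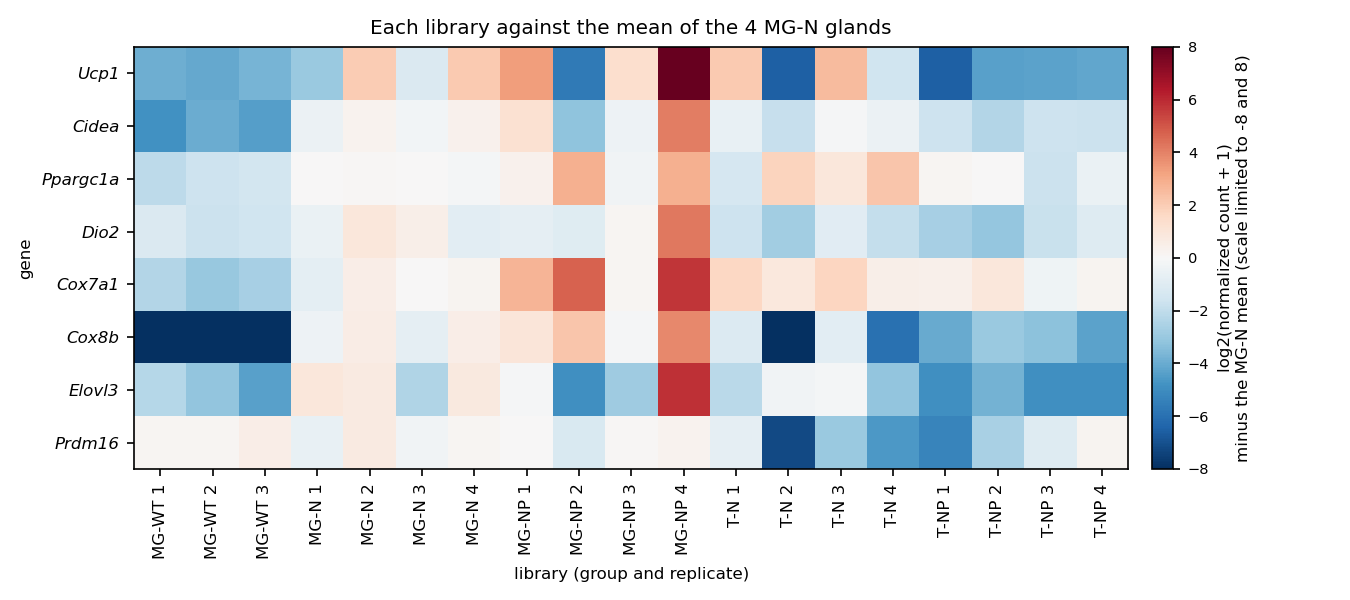
Log2(normalized count + 1) of each gene in each library minus the mean of the 4 MG-N glands, with colors limited to -8 and 8. The column of MG-NP replicate 4 is red for 7 genes, and that of MG-NP replicate 2 is red for Ppargc1a, Cox7a1 and Cox8b and blue for Ucp1, Cidea and Elovl3.

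Ucp1 varied far more than white adipocyte RNA did in the same glands. Per normalized count of Adipoq, MG-N glands had 0.000515, 0.0204, 0.00236 and 0.0195 of Ucp1 and MG-NP glands had 0.136, 0.000122, 0.0228 and 1.47. Adipoq itself spanned a much narrower range, with 47029, 38360.2, 36543 and 41765 for MG-N and 14468, 23459, 21050.5 and 38749 for MG-NP. In T-N, the ratio was 2.99, 0.333, 2.05 and 0.585, with Adipoq at 282, 3.16, 556 and 109.7. The 0.333 of T-N replicate 2 is 1 read of Ucp1 over 3 of Adipoq. T-N replicates 1 and 3 thus had more Ucp1 than any MG-N gland at a small part of the Adipoq of those glands. The ratio was 0.0154, 0.0440, 0.0493 and 0.157 in T-NP. In MG-WT, with almost no Adipoq, it was 7.0, 0.4375 and 1.42, so a high ratio at low Adipoq was not particular to T-N. Zic1, a marker of classical brown fat named after its values were seen, had 43.9 normalized counts in MG-NP replicate 4, 23.9 in T-N replicate 1 and 31.3 in T-N replicate 3. It had at most 1.30 in the other 16 libraries. Lhx8, another marker of classical brown fat on the same list, had a different pattern, with 155 in MG-NP replicate 4 but 3.41 and 11.1 in T-N replicates 1 and 3, and 64.96, 52.9, 54.5 and 51.5 in MG-N. The 3 libraries with Zic1 were not the only ones with Ucp1, since MG-NP replicate 1 had 0.954 of Zic1, which is 1 read, and MG-N replicates 2 and 4 had 0.

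**Figure D4:**
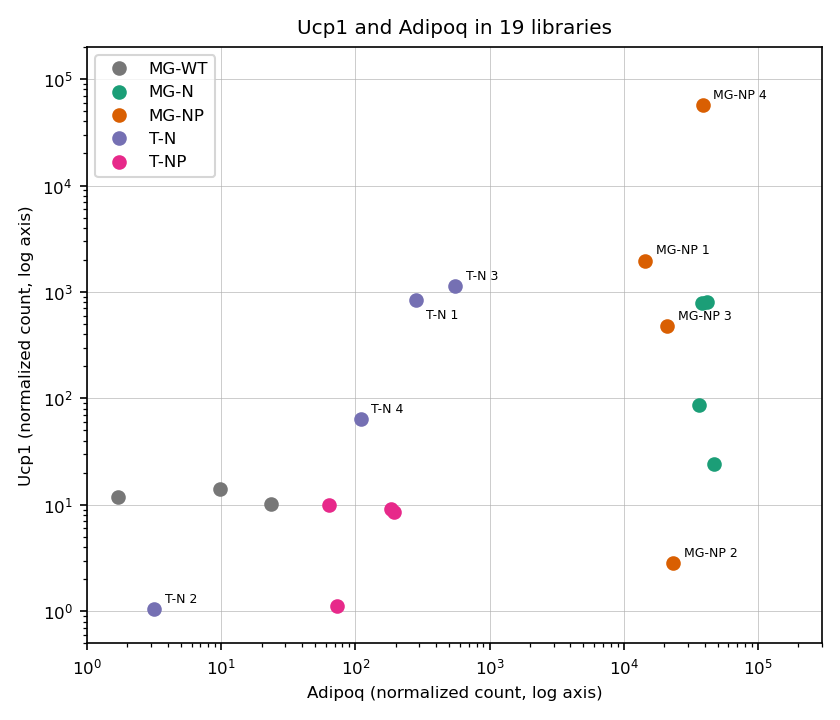
Ucp1 against Adipoq in normalized counts on log axes, with 1 point per library. The N and NP glands lie between 14468 and 47029 of Adipoq and spread from 2.85 to 56926 of Ucp1, and T-N replicates 1 and 3 reach 842 and 1139 of Ucp1 at 282 and 556 of Adipoq.

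Across the 8 N and NP glands, the Pearson correlation of log2(normalized count + 1) between Ucp1, Cidea, Elovl3, Dio2 and Prdm16 ranged from r = 0.46 (Dio2 and Prdm16) to r = 0.95 (Ucp1 and Cidea). Among Ppargc1a, Cox7a1 and Cox8b it ranged from r = 0.90 (Ppargc1a and Cox8b) to r = 0.95 (Cox7a1 and Cox8b). Between these genes and the first 5, it ranged from r = -0.39 (Ppargc1a and Prdm16) to r = 0.62 (Dio2 and Cox8b), with r = 0.07 for Ucp1 and Ppargc1a. Over all 19 libraries, r was 0.74 both for Cidea and Cox8b and for Cox7a1 and Cox8b. This division of the genes was made after the values were seen. The values over n = 8 glands and n = 19 libraries are descriptions that share 1 extreme library, MG-NP replicate 4. The genes most like Ucp1 in these glands were Cyp4f13 (r = 0.97), Cerkl (r = 0.95) and Otop1 (r = 0.94), the last a proton channel enriched in brown fat. Those most like Cidea were Gm9899 (r = 0.97), the potassium channel gene Kcnk3 (r = 0.97) and Cerkl (r = 0.97). For Ppargc1a they were Pink1, Coq10a and Ndufaf5, with r = 0.998, 0.995 and 0.995, and for Cox7a1 they were Gmpr (r = 0.99), the calcium store gene Casq2 (r = 0.99) and Gm38077 (r = 0.98).

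The remaining genes gave other neighbors in the 8 glands. Dio2 was most like S100b (r = 0.97), Qrich1 (r = 0.96) and Sdhaf1 (r = 0.95), and Cox8b was most like Pdss2, Pde4a and Tprgl (r = 0.97 each). Elovl3 was most like Sgpl1 (r = 0.99), Tbc1d20 (r = 0.97) and Gosr1 (r = 0.96), and Prdm16 was most like Add3 (r = 0.94), Col27a1 (r = 0.93) and Rasl12 (r = 0.92). Over all 19 libraries the closest gene was Gm9899 for Ucp1 (r = 0.82), Ehhadh for Cidea (r = 0.88), Egln1 for Ppargc1a (r = 0.95) and Letm1 for Dio2 (r = 0.91). It was Ndufs7 for Cox7a1 (r = 0.95), Ces1d for Cox8b (r = 0.94), Letmd1 for Elovl3 (r = 0.82) and Tprgl for Prdm16 (r = 0.93).

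Glands of tumor-bearing N mice had more thermogenic gene expression than wild-type glands. Of the 8 genes, limma called 7 higher and 0 lower in MG-N than in MG-WT on log2(normalized count + 1) values, at a Benjamini-Hochberg adjusted p under 0.05 over all genes tested and a change of at least 2-fold. The background was high, since 19.1% of the 19017 genes tested were called higher and 17.9% lower. Cox8b rose by 8.55 ± 0.42 on the log2 scale (SE, adjusted p = 2.98e-06), which by counts is at least 432-fold given the 3-read floor of each MG-WT library. Genes of lipid handling and uncoupling came next. Cidea rose by 4.40 ± 0.28 (adjusted p = 1.08e-05), Ucp1 by 3.90 ± 1.16 (adjusted p = 0.0195) and Elovl3 by 3.25 ± 0.88 (adjusted p = 0.0127). Cox7a1 rose by 2.68 ± 0.37 (adjusted p = 0.000474), Ppargc1a by 1.74 ± 0.20 (adjusted p = 0.000170) and Dio2 by 1.49 ± 0.42 (adjusted p = 0.0151). Prdm16, whose ranges overlapped, differed by -0.26 ± 0.30 (adjusted p = 0.492). The values of MG-N lay wholly above those of MG-WT for 6 genes, against 31.5% of all genes tested, and Elovl3 overlapped. In the same comparison, 9 of 9 white adipocyte markers were called higher, with Adipoq at 12.15 ± 0.62, and 13 of 16 muscle markers, with Ckm at 6.40 ± 1.80. The 9 luminal and 6 basal epithelial markers were all called lower. Their part in the rise of the thermogenic genes was not tested. With 4 against 3 samples, an exact two-sided permutation test cannot go below p = 0.0571, which 6 of the genes reached. Without MG-WT replicate 1, 2 or 3, Ucp1 was no longer called (adjusted p = 0.0553, 0.0589 and 0.0521). Dio2 was lost without MG-WT replicate 2 or 3 (adjusted p = 0.0524 and 0.0508), and Elovl3 without MG-WT replicate 3 (adjusted p = 0.0555), which left 6, 5 and 4 genes called. In the same order, 3462 of 19539, 3640 of 19541 and 3472 of 19586 genes were called higher. Fitted with all 5 groups together, 3 genes were called, with 3227 of 19017 genes called higher. Ucp1 (adjusted p = 0.201), Elovl3 (0.124), Ppargc1a (0.0823) and Dio2 (0.191) were not called.

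Glands of NP mice were compared with the same wild-type glands. In MG-NP against MG-WT, 4 of 7 tested genes were called higher and 0 lower by limma, with 16.4% of 19065 genes called higher and 16.2% lower. Cox8b rose by 10.28 ± 0.87 (adjusted p = 0.000248), by counts at least 2224-fold, or at least 1009-fold without MG-NP replicate 4. Cox7a1 rose by 6.003 ± 1.199 (adjusted p = 0.0061), Cidea by 4.83 ± 1.498 (adjusted p = 0.0328) and Ppargc1a by 3.19 ± 0.82 (adjusted p = 0.0167). The error was largest for Ucp1. Ucp1 differed by 5.70 ± 2.79 (adjusted p = 0.130), Dio2 by 2.16 ± 1.18 (adjusted p = 0.168) and Prdm16 by -0.48 ± 0.37 (adjusted p = 0.318). Elovl3 passed the filter on low counts in too few glands to be tested, and its means of log2 values differed by 2.76 (exact permutation p = 0.457, n = 4 and 3). Of the 7 tested genes, 5 had every MG-NP gland above every MG-WT gland, against 26.5% of all genes tested. Here 16 of 16 muscle markers and 9 of 9 white adipocyte markers were called higher. On the recovered reads, edgeR also called Ucp1 (10.31, adjusted p = 0.0297), for 5 genes in all, with 18.9% of all genes called higher, and DESeq2 gave Ucp1 10.32 with no adjusted p. With the skeletal muscle score as a covariate, 789 of all genes were called higher and 1 of the 8 stayed called, Cox8b. In that fit Ppargc1a differed by -1.25 and Cox7a1 by -0.97, while Cidea kept nearly its size (4.35, adjusted p = 0.480) and Ucp1 differed by 7.14 (adjusted p = 0.536). The score, the mean log2(normalized count + 1) of the 16 markers, was 2.82 to 3.18 in MG-WT and 8.83 to 16.9 in MG-NP. Since these ranges do not overlap, the fit cannot separate muscle RNA from group. With MG-NP replicates 2 and 4 both left out, 6 genes were called, Ucp1 and Dio2 among them at 6.23 and 1.21, with 3599 of 19272 genes called higher. Only MG-NP replicates 1 and 3 remained in that fit, and replicate 1 had 1.93% of its reads on muscle markers. Leaving out MG-NP replicate 2 alone gave a call for Ucp1 (8.19, adjusted p = 0.00863), and leaving out replicate 4 alone gave 3.57 (adjusted p = 0.215). The calls of Cidea and Ppargc1a were lost without MG-WT replicate 1 (adjusted p = 0.0993 and 0.0626) or 2 (0.0778 and 0.0527), leaving 2 genes called, and that of Cidea without MG-WT replicate 3 (0.0912) or MG-NP replicate 1 (0.068), leaving 3. In the same order, 2404 of 19770, 2547 of 19793, 2419 of 19840 and 2905 of 18589 genes were called higher. The MG-N and MG-NP results share the 3 MG-WT glands and are not independent.

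The step from gland to tumor in N mice was compared next. All T-N tumors carried Fsp-Cre, whereas all MG-N glands except replicate 1 carried the p53 allele without Cre, so this step mixes tissue with genotype. In T-N against MG-N, limma called Dio2 and Prdm16 lower (25% of the 8) and Cox7a1 higher (12.5%). Of all 17950 genes tested, 22.3% were called lower and 12.8% higher, so the shares of the 8 genes were close to those of all genes. Dio2 fell by 1.82 ± 0.50 on the log2 scale (adjusted p = 0.0146) and Prdm16 fell by 3.87 ± 1.18 (adjusted p = 0.0229). Cox7a1 rose by 1.17 ± 0.40 (adjusted p = 0.0378), although 1 tumor lay within the gland range. Cox8b differed by -4.28 ± 1.69 (adjusted p = 0.0615), Elovl3 by -1.44 ± 0.94 (adjusted p = 0.227), Ucp1 by -0.86 ± 2.03 (adjusted p = 0.743), Cidea by -0.74 ± 0.37 (adjusted p = 0.128) and Ppargc1a by 0.89 ± 0.68 (adjusted p = 0.296). Dio2, Prdm16 and Cox8b lay wholly below MG-N, against 26.4% of all genes tested, each at the smallest exact permutation p that 4 against 4 allows, 0.0286. In the same comparison 9 of 9 white adipocyte markers were called lower, with Adipoq at -8.79 ± 1.30, and 0 of 16 muscle markers were called. For Ucp1 the sign rested on T-N replicate 2, without which it differed by 1.04 (adjusted p = 0.586).

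**Figure D5:**
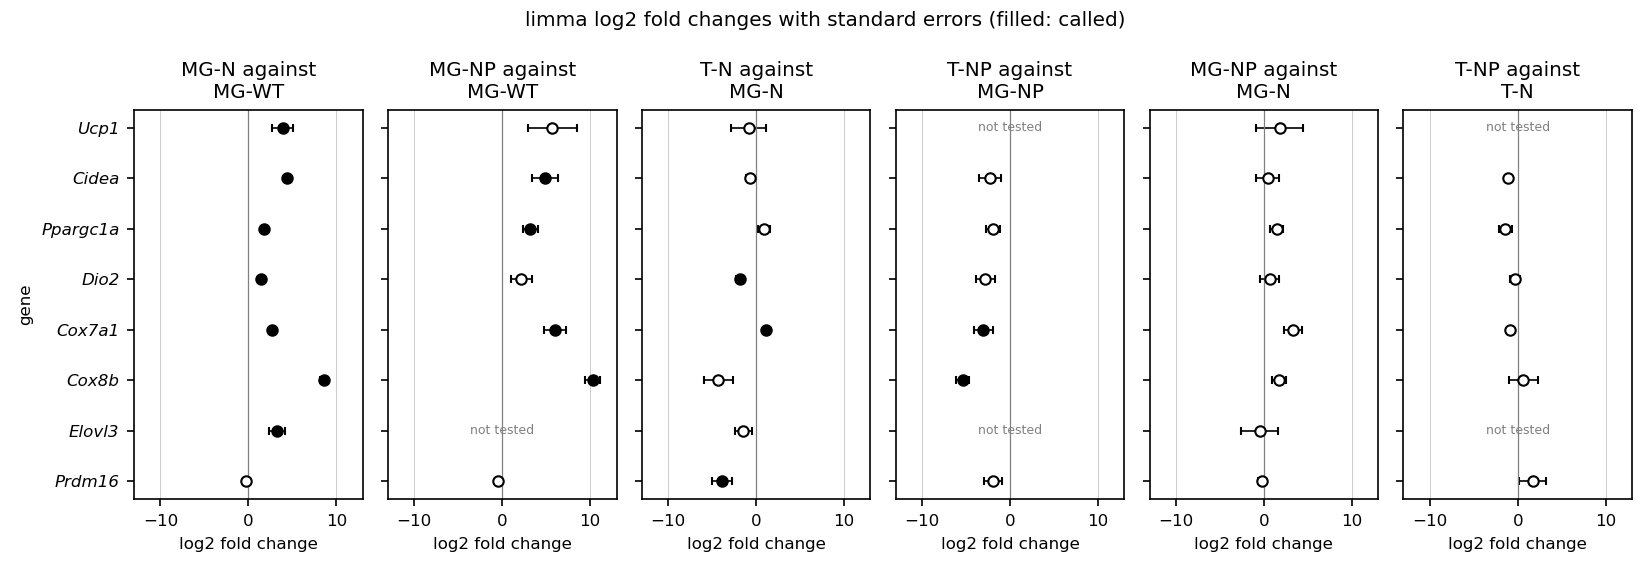
Log2 fold changes from limma with standard errors for the 8 genes in 6 comparisons, where filled points passed an adjusted p under 0.05 and a 2-fold change and genes under the filter are marked as not tested. Filled points are most numerous for MG-N against MG-WT, with 7, and absent for MG-NP against MG-N and for T-NP against T-N.

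Single samples decided several of these calls in N mice. Cox7a1 was not called without MG-N replicate 1 (0.89, adjusted p = 0.0919), 3 (1.17, adjusted p = 0.0745) or 4 (1.25, adjusted p = 0.0601), or without T-N replicate 1 (0.99, adjusted p = 0.0842) or 3 (0.99, adjusted p = 0.0876). Prdm16 was not called without MG-N replicate 2 (-3.63, adjusted p = 0.0593) or 4 (-3.81, adjusted p = 0.0540), or without T-N replicate 4 (-3.64, adjusted p = 0.0562). Cox8b was called lower without T-N replicate 1 (-5.33, adjusted p = 0.0297) or 3 (-5.42, adjusted p = 0.0239), and Elovl3 without MG-N replicate 3 (-2.25, adjusted p = 0.0461). Ppargc1a was called higher without T-N replicate 1 (1.64, adjusted p = 0.00362). Dio2 stayed called in each fit that left out 1 sample, but not with all 5 groups in 1 fit (-1.82, adjusted p = 0.0765), where Cox7a1 was also lost (adjusted p = 0.224) and Cox8b was called (-4.28, adjusted p = 0.0118). Cox8b was also called with a pseudocount of 5 (-3.57, adjusted p = 0.0445). With edgeR, Prdm16 was not called (-2.44, adjusted p = 0.0864), with 21.1% of all genes called lower. With DESeq2, Ppargc1a was called higher (1.39, adjusted p = 0.0386), with 14.3% of all genes called higher.

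In NP mice the mean log2 value was lower in tumors than in glands for all 8 genes. In T-NP against MG-NP, limma called 2 of 6 tested genes lower and 0 higher, with 24.0% of 17880 genes called lower and 14.7% higher. Cox8b fell by 5.37 ± 0.76 on the log2 scale (adjusted p = 0.000520) and Cox7a1 fell by 3.01 ± 1.04 (adjusted p = 0.0355). Dio2 differed by -2.82 ± 1.08 (adjusted p = 0.0520), Ppargc1a by -1.97 ± 0.78 (adjusted p = 0.0584), Cidea by -2.26 ± 1.28 (adjusted p = 0.163) and Prdm16 by -1.94 ± 1.04 (adjusted p = 0.143). Ucp1 and Elovl3 did not pass the filter, with differences of -6.62 and -4.14 in mean log2 value (exact permutation p = 0.114 and 0.143, n = 4 each), and the mean of Elovl3 was at least 123-fold lower in T-NP than in MG-NP by the 3-read floor. That mean rests on MG-NP replicate 4, without which the bound is 2.81-fold. The groups did not overlap for Cox8b and Dio2, against 27.4% of all genes tested lower without overlap. All 16 muscle markers and 9 white adipocyte markers were called lower here, with Ckm at -7.46 ± 1.75 and Adipoq at -7.64 ± 0.44.

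The number of calls in T-NP against MG-NP moved with the method and with MG-NP replicates 2 and 4. EdgeR called 5 genes lower, with Cidea (-4.11, adjusted p = 0.0238), Dio2 (-4.30, adjusted p = 0.0212) and Ppargc1a (-2.39, adjusted p = 0.0249) added, and 24.7% of all genes. DESeq2 called 4, with Cidea (-4.13, adjusted p = 0.000209) and Ppargc1a (-2.41, adjusted p = 0.00181) added, and 25.3% of all genes. All 5 groups in 1 fit added Dio2 (adjusted p = 0.00879) and Ppargc1a (adjusted p = 0.0303), with 4463 of 17880 genes called lower. Without MG-NP replicates 2 and 4, 4 genes were called lower, with 4556 of 18934 genes called lower. Cox7a1 was no longer among the 4 (-1.14). Cidea at -2.24 and Dio2 at -1.87 were added, and Ucp1, which then passed the filter. With the skeletal muscle score as a covariate, Cox7a1 differed by 0.12 and 1 gene stayed called, with 2595 of 17880 genes called lower. The score was 3.05 to 8.19 in T-NP and 8.83 to 16.9 in MG-NP, so this fit cannot separate muscle RNA from group either. Averaging T-NP replicates 1 and 2, which share an animal number, also left 1 gene called, with 4075 of 17880 genes called lower. Cox7a1 was then at -3.13 (adjusted p = 0.0604). Cox7a1 was not called in any fit that left out 1 sample except that without MG-NP replicate 3. Without MG-NP replicate 2, Cidea (-3.47, adjusted p = 0.0141) and Dio2 (-3.37, adjusted p = 0.0366) were called, as was Ucp1, which then passed the filter. Dio2 was also called without MG-NP replicate 1 (-3.29, adjusted p = 0.0453) or 4 (-1.64, adjusted p = 0.0332), Ppargc1a without MG-NP replicate 1 (-2.34, adjusted p = 0.0449) or 3 (-2.54, adjusted p = 0.0163), and Prdm16 without T-NP replicate 4 (-2.74, adjusted p = 0.0425).

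Mutant p53 in fibroblasts was the contrast between MG-NP and MG-N glands, where 3 of the 4 MG-N glands carried the allele without Cre and 1 carried Cre without the allele. No thermogenic gene was called by limma in MG-NP against MG-N, nor was any of the 18563 genes tested (0% in either direction), and 1 of the 8 had an unadjusted p under 0.05. That gene was Cox7a1 with a difference of 3.33 ± 1.07 (adjusted p = 0.345). Ucp1 differed by 1.80 ± 2.65 (adjusted p = 0.883), Cox8b by 1.74 ± 0.78 (adjusted p = 0.483), Ppargc1a by 1.45 ± 0.71 (adjusted p = 0.528) and Dio2 by 0.68 ± 1.08 (adjusted p = 0.896). Cidea differed by 0.43 ± 1.31 (adjusted p = 0.956), Elovl3 by -0.49 ± 2.104 (adjusted p = 0.970) and Prdm16 by -0.22 ± 0.40 (adjusted p = 0.911). All 8 genes overlapped between the groups, as did all but 6.21% of the genes tested, and an SE of over 1 on the log2 scale for 5 of them means that changes of several fold could not be detected. On the recovered reads, edgeR called 0 genes, with an unadjusted p under 0.05 for 3, and DESeq2 called Cox7a1 (4.41, adjusted p = 5.35e-05), Cox8b (2.42, adjusted p = 0.0361) and Ppargc1a (2.11, adjusted p = 0.0415), while giving no adjusted p for Ucp1, Dio2 and Elovl3. By DESeq2, 2.16% of all genes were called higher and 0.609% lower. Elovl3 differed by 3.56 with edgeR. With the muscle score as a covariate, Ppargc1a differed by -0.27. The score was 3.97 to 9.56 in MG-N, and of the MG-NP glands only replicate 3 (8.83) lay in that range. This fit therefore separates muscle RNA from group poorly. Without MG-NP replicate 4, Ucp1 differed by -0.33, Cidea by -0.79 and Dio2 by -0.51, so the sign of these differences rested on that gland. Without MG-NP replicate 3, Cox7a1 was called at 4.38 (adjusted p = 0.0221). The sign of Elovl3 turned without MG-NP replicate 2 (0.99) or 3 (0.29), and that of Prdm16 without MG-NP replicate 2 (0.12) or MG-N replicate 2 (0.02).

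Tumors of the 2 genotypes were also compared. In T-NP against T-N, limma called 0 of the 6 tested genes, with 0.0361% of 16638 genes called higher and 0.00601% called lower. Cidea had an unadjusted p under 0.05, with a difference of -1.09 ± 0.37 (adjusted p = 0.669). Ppargc1a differed by -1.41 ± 0.76 (adjusted p = 0.723), Cox7a1 by -0.85 ± 0.38 (adjusted p = 0.686), Dio2 by -0.33 ± 0.54 (adjusted p = 0.896), Cox8b by 0.64 ± 1.68 (adjusted p = 0.941) and Prdm16 by 1.71 ± 1.51 (adjusted p = 0.808). By edgeR and by DESeq2, 0 genes were called and 3 had an unadjusted p under 0.05. Ucp1 and Elovl3, below the filter, differed by -3.95 and -3.19 in mean log2 value (exact permutation p = 0.143 and 0.0286, n = 4 each). All T-N tumors had at least 2 reads of Elovl3, whereas 3 T-NP tumors had none and the fourth had 1, so by the 3-read floor the T-NP mean was at least 3.99-fold lower. The T-N mean rests mostly on replicates 2 and 3 (23 and 26 reads), since replicates 1 and 4 had 5 and 2 reads. After adjustment over the 48 tests of 8 genes in 6 comparisons, the smallest exact permutation p was 0.152. Without T-N replicate 2, Cox8b differed by -0.99.

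Whether the step from gland to tumor differed between NP and N mice was tested as an interaction over these 16 samples. The step in N mice mixes tissue with genotype, since all T-N tumors carried Fsp-Cre and MG-N replicates 2, 3 and 4 carried the p53 allele without Cre. Limma called 0 of the 8 genes and 0% of the 19367 genes tested, and 2 of the 8 had an unadjusted p under 0.05. Those were Cox7a1 at -4.18 ± 1.19 (adjusted p = 0.480) and Ppargc1a at -2.86 ± 1.11 (adjusted p = 0.546). Ucp1 gave -5.75 ± 3.42 (adjusted p = 0.724), Elovl3 -2.70 ± 2.35 (adjusted p = 0.848), Cidea -1.52 ± 1.43 (adjusted p = 0.863) and Prdm16 1.93 ± 1.69 (adjusted p = 0.850). Cox8b gave -1.09 ± 1.999 (adjusted p = 0.948) and Dio2 -1.001 ± 1.27 (adjusted p = 0.906). Without MG-NP replicate 3, Cox7a1 was called (-5.23, adjusted p = 0.00679), and the sign turned for Dio2 without MG-NP replicate 4 (0.18) and for Cox8b without T-N replicate 3 (0.05).

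The closest relatives of the 8 genes were measured in the same libraries. Ucp3, another uncoupling protein, rose by 5.38 ± 0.45 in MG-N and 6.59 ± 0.71 in MG-NP against MG-WT (adjusted p = 3.70e-05 and 0.000589). It fell by 6.08 ± 1.097 in T-N and by 6.23 ± 0.84 in T-NP against their glands (adjusted p = 0.00211 and 0.000408). Cidec, the lipid droplet protein of white fat, rose by 10.55 ± 0.34 and 10.02 ± 0.43 and fell by 8.497 ± 1.49 and by 7.55 ± 0.41 in the same 4 comparisons (adjusted p = 5.13e-07, 2.09e-05, 0.00186 and 7.95e-06). Its normalized counts were 19958, 27869, 21062 and 37734 in MG-N and 249, 1.05, 548 and 91.03 in T-N, so these groups did not overlap, whereas for Cidea they did. Ucp2, a relative found in many cells, fell by 1.28 ± 0.17 in MG-N and by 1.32 ± 0.45 in MG-NP against MG-WT (adjusted p = 0.000347 and 0.0436) and was not called in the tumor comparisons. Ppargc1b fell by 2.79 ± 0.30 in T-N and by 3.14 ± 0.43 in T-NP against their glands (adjusted p = 0.000215 and 0.000425), where Ppargc1a was not called. Cox7a2 rose by 1.495 ± 0.125 and 1.59 ± 0.43 in MG-N and MG-NP against MG-WT (adjusted p = 3.83e-05 and 0.0193), and Cox8a rose by 1.15 ± 0.10 in MG-N (adjusted p = 3.88e-05), with 0.90 ± 0.37 in MG-NP (adjusted p = 0.0793). Neither of the 2 widely expressed subunits was called between tumors and glands. None of these relatives was called in MG-NP against MG-N or in T-NP against T-N.

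The adrenergic input was described by 11 genes. Adrb3, the beta-3 receptor of adipocytes, had 2.99, 7.32 and 8.27 normalized counts in MG-WT, 1380.1, 2749, 3587 and 4970.2 in MG-NP and 5279, 5196, 4458 and 6369.8 in MG-N. It had 31.8, 1.05, 72.7 and 10.5 in T-N and 4.48, 2.44, 19.5 and 7.49 in T-NP, so it was high in N and NP glands and low in the other groups, as the white adipocyte markers were. It rose by 9.61 ± 0.29 in MG-N against MG-WT (adjusted p = 4.41e-07) and by 8.73 ± 0.49 in MG-NP (adjusted p = 5.68e-05), and fell by 8.42 ± 0.94 in T-N and fell by 8.57 ± 0.58 in T-NP against their glands (adjusted p = 0.000243 and 1.84e-05). Among the 11 genes, MG-N had 3 called higher and 2 called lower than MG-WT (27.3% and 18.2%, beside 19.1% and 17.9% of all genes), and MG-NP had 2 and 1 (18.2% and 9.09%, beside 16.4% and 16.2%), so the MG-NP shares were near or below those of all genes. In T-N and T-NP against their glands, 1 was higher and 4 were lower in each (9.09% and 36.4%, beside 12.8% and 22.3% of all genes in T-N and 14.7% and 24.0% in T-NP), with Adrb1, the beta-1 receptor, as the riser (2.54 and 2.36).

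Among 18 other transcriptional regulators, MG-N had 5 called higher and 5 called lower than MG-WT (27.8% each, beside 19.1% and 17.9% of all genes). MG-NP had 5 and 3 (27.8% and 16.7%, beside 16.4% and 16.2%), so the share called lower was close to that of all genes. Pparg, the master regulator of fat cells, rose by 4.54 and 3.92, Ppara, which drives fatty acid oxidation, by 2.76 and 3.83, and Cebpb fell by 3.41 and by 2.75. Against the glands, 3 were called higher and 9 lower in T-N (16.7% and 50%, beside 12.8% and 22.3%), and 1 and 8 in T-NP (5.56% and 44.4%, beside 14.7% and 24.0%). Irf4 fell by 5.94 in T-N and by 6.39 in T-NP, Pparg fell by 5.56 and by 6.13, and Cebpb rose by 2.25 and 1.91.

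Of the genes enriched in brown and beige adipocytes, 14 of 17 were tested in each of the 4 comparisons with MG-WT or between tumor and gland. In MG-N against MG-WT, 7 were called higher and 1 lower (50% and 7.14%, beside 19.1% and 17.9% of all genes), led by Clstn3 (4.29) and the proton channel gene Otop1 (3.39), with Cited1 lower (-2.19). In MG-NP, 5 were called higher and 1 lower (35.7% and 7.14%, beside 16.4% and 16.2%), with Clstn3 at 3.79, Otop1 at 3.79 and Cited1 at -1.98. T-N had 1 called higher, Tbx15 (1.25), and 7 called lower, led by Nrg4 (-6.76) and Ntrk3 (-6.06), and T-NP had 0 and 7, led by Clstn3 (-6.63) and Ntrk3 (-6.57). The 7 called lower are 50% of the 14 in each, beside 22.3% and 24.0% of all genes. The median log2 fold change over the 14 genes was 1.33, 1.97, -2.91 and -3.03 in these comparisons, beside -0.07 to 0.02 over all genes tested.

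For fatty acid fuel use, MG-N had 6 of 13 genes called higher and 1 called lower than MG-WT (46.2% and 7.69%, beside 19.1% and 17.9% of all genes), and MG-NP had 8 of 14 and 0 (57.1% and 0%, beside 16.4% and 16.2%). Lipoprotein lipase, Lpl, rose by 5.73 and 5.09, the dehydrogenase gene Acadm rose by 2.84 in MG-N, and the fatty acid binding protein gene Fabp3 rose by 7.71 in MG-NP. In T-N, 7 of 13 were called lower and 1 higher (53.8% and 7.69%, beside 22.3% and 12.8%), with Lpl at -6.85, Pdk4 at -4.55 and the glycerol kinase gene Gk at 2.97. In T-NP, 8 of 13 were called lower (61.5%, beside 24.0%) and 0 higher, with Pdk4 at -7.19 and Lpl at -6.50.

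The heat cycles that do not need Ucp1, namely creatine, calcium and N-acyl amino acid cycling, gave 3 of 9 genes called higher and 2 called lower than MG-WT for MG-N (33.3% and 22.2%, beside 19.1% and 17.9% of all genes), and 1 of 10 and 2 for MG-NP (10% and 20%, beside 16.4% and 16.2%). Ckmt2, the mitochondrial creatine kinase of muscle, rose by 9.53 in MG-NP, and Pm20d1 rose by 1.51 in MG-N. In the tumors, 2 of 9 were called higher in each genotype (22.2%, beside 12.8% in T-N and 14.7% in T-NP), with 3 lower in T-N (33.3%, beside 22.3%) and 4 lower in T-NP (44.4%, beside 24.0%). Ckmt1, the creatine kinase of epithelia and brain, rose by 4.31 and 3.92, Pm20d1 was lowest in T-N (-4.34), and Ckmt2 was lowest in T-NP (-7.65). In MG-NP against MG-N and in T-NP against T-N, 0 genes of these 5 lists and of the family relatives were called by limma.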

How the data were processed

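RNA was sequenced from 19 mouse mammary gland and tumor samples. Per the methods of the study, reads were 75-bp pairs, mapped to GRCm38 with TopHat2 (2.1.1 in the processing notes) and Bowtie2. The counting tool, its annotation and its use of strand are not given in the sources used here, and the records and the methods name different TruSeq kits. The deposited values are signal, namely gene counts that the authors divided by DESeq2 size factors. Whole reads were recovered in every library (100% of values within 0.05 reads), and the counts of recovered reads gave the depth. The authors' pooling of replicates is not described, and no pair of libraries was identical.

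Genes were named with GENCODE vM21 (45229 of 46078 identifiers matched). Comparisons were fitted with limma 3.58.1 (lmFit, eBayes with trend; R 4.3.3) on log2(normalized count + 1), with only the 2 groups compared and genes of at least 10 normalized counts in as many samples as the smaller group. This scale understates changes of low genes. Calls needed a Benjamini-Hochberg adjusted p under 0.05 over all genes tested and a 2-fold change, or the adjusted p alone for the interaction. On simulated counts with 200 changed genes, this test recovered 100% of them for T-N against MG-N and 100% for MG-NP against MG-N. There were 2 false calls among 18359 genes and 1 among 18912 genes. The simulated spread between samples was small and the same for every gene. In MG-NP the SD of log2 values ran from 0.69 (Prdm16) to 5.75 (Ucp1), so this recovery does not give the power for the 8 genes. Single values were also compared by exact two-sided permutation tests (scipy 1.17.1). Floors of 3 reads cover counting error only, and p-values measure the spread between samples of a group.

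Alternatives were pseudocounts of 0.5 and 5, no filter, a filter at a mean of 50, TMM scaling, edgeR 4.0.16 and DESeq2 1.42.0 on the recovered reads, no fold threshold, all 5 groups in 1 fit, a replicate block, T-NP replicates 1 and 2 averaged, muscle and white adipocyte covariates, and each sample left out. Leaving out MG-NP replicates 2 and 4 together was added after the values were seen. The genes and lists were chosen with earlier results of these data known. The text names all 8 genes, at most the 2 largest rises and 2 largest falls among called genes of each list, the relatives Ucp2, Ucp3, Cidec, Cox7a2, Cox8a and Ppargc1b, Adrb3, Adipoq, Ckm, and for each gene the 3 with the highest Pearson correlation over the 8 N and NP glands, of those with a mean of at least 50, and the first of these over all 19 libraries. Sgk2, Cyp2b10, Adtrp, Myh6, Tnni1, Myh7, Zic1 and Lhx8 were named after their values were seen.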

Additional observations from a re-analysis of the deposited data

Results flagged for a closer look

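Of 68 gene and group pairs of 4 samples, 9 held a value that lay far from the other 3 in normalized counts by Dixon's test. The test's chance rate of about 1 in 20 assumes normally distributed, independent values. Normalized counts are skewed and several flags share 1 gland, so the 9 cannot be set against that rate. In MG-NP, replicate 4 lay far above the rest for Ucp1 (56926 normalized counts), Cidea (9003), Dio2 (4296) and Elovl3 (1774), so these 4 values come from 1 gland. Skeletal muscle markers took 5.17% of reads in that gland, and their part in the 4 values was not tested. In MG-N, replicate 3 lay far below the rest for Elovl3 (4.70). In T-NP, replicate 1 was far below the others for Ucp1 (1.12, a single read), replicate 2 was below the others for Cidea (104.9), and replicate 2 was the only tumor with a read of Elovl3 (1.22). In T-N, replicate 3 stood above the others for the muscle marker Ckm (3090).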

How the results depend on the processing

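Of 252 alternative values for the numbers of thermogenic genes called, 222 stayed within 1.5 times the reported number and 30 did not. Of 991 alternative values for single genes, 890 kept their direction and side of the threshold, 39 lost a call, 34 gained one and 28 changed sign. Where not stated otherwise, the cause was not tested. In MG-N against MG-WT, the 7 genes called higher became 3 with all 5 groups in 1 fit, and 4 to 7 with 1 sample left out. In MG-NP against MG-WT, the 4 called became 1 with the skeletal muscle covariate and 2 to 5 with 1 sample left out. In T-N against MG-N, the 1 called higher became 2 with DESeq2, 0 with all 5 groups and 0 to 1 with 1 sample left out, and the 2 called lower became 1 with edgeR and 1 to 3 with 1 sample left out. In T-NP against MG-NP, the 2 called lower became 5 with edgeR, 4 with DESeq2, 4 with all 5 groups, 1 with T-NP replicates 1 and 2 averaged, 1 with the muscle covariate, 4 without MG-NP replicates 2 and 4, and 1 to 4 with 1 sample left out. In MG-NP against MG-N, 0 became 3 with DESeq2 and 0 to 1 with 1 sample left out. The interaction called 0 to 1 gene with 1 sample left out.

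Signs changed as follows. With the muscle covariate, Ppargc1a (-1.25), Cox7a1 (-0.97) and Prdm16 (0.48) turned in MG-NP against MG-WT, Cox7a1 (0.12) in T-NP against MG-NP, and Ppargc1a (-0.27), Dio2 (-0.33) and Prdm16 (0.18) in MG-NP against MG-N. The muscle scores of MG-NP did not overlap with those of MG-WT or T-NP, so the turns against these groups are not muscle-adjusted differences. Against MG-N, only MG-NP replicate 3 lay within the MG-N range, so those turns cannot be read as muscle-adjusted differences either. In T-N against MG-N, Ucp1 was 0.28 with edgeR, 0.27 with DESeq2 and -2.002 to 1.04 with 1 sample left out. In MG-NP against MG-N, Elovl3 was 0.11 with a pseudocount of 5, 3.56 with edgeR, 3.57 with DESeq2, 3.34 with the white adipocyte covariate and -2.61 to 0.99 with 1 sample left out. There, leaving out 1 sample gave -0.33 to 4.29 for Ucp1, -0.79 to 1.64 for Cidea, -0.51 to 1.22 for Dio2 and -0.43 to 0.12 for Prdm16, and leaving out MG-NP replicates 2 and 4 gave -0.28 for Dio2 and 0.049 for Prdm16. In T-NP against T-N, Cox8b was -1.61 with edgeR, -1.62 with DESeq2 and -0.99 to 1.79 with 1 sample left out. The interaction was -1.55 to 0.18 for Dio2 and -2.72 to 0.048 for Cox8b with 1 sample left out.

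Replicate numbers did not pair the samples, since the correlation of same-numbered samples ranged from -0.28 to 0.32 and in no comparison was every pair over 0.1. With the replicate block, T-N against MG-N had 0 genes called higher, T-NP against MG-NP had 4 called lower, and Cidea in MG-NP against MG-WT was 3.61 (adjusted p = 0.0547). Elovl3 had under 3 reads in 7 libraries, Cox8b in 4 (3 of them MG-WT, the most deeply sequenced group), Ucp1 in 3 and Prdm16 in 1, which limits the precision of these values.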
